A study of Mus musculus with 16 samples.

Results

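The comparison described here is the effect of losing 1 allele of Ncoa5 in mouse liver, taken across mice with and without loss of 1 allele of Tip30. It sets 8 livers with 1 Ncoa5 allele deleted against 8 livers with both Ncoa5 alleles, with Tip30 genotype as an additive term, and so uses all 16 libraries of the study. Genes entered if their normalized counts averaged 10 or more over the 16 libraries, which was 15263 of the 30199 genes in the table. A730011C13Rik, with a mean of 10.0143, was the last gene inside this limit, and Gm43690, with a mean of 9.9976, the first outside it. The Ncoa5-heterozygous arm held 4 Ncoa5+/- mice and 4 Ncoa5+/-Tip30+/- mice. The Ncoa5-intact arm held 4 wild-type mice and 4 Tip30+/- mice. All were females aged 5 months. The deletions are heterozygous in every mouse that carries them, no drug or diet was given beyond standard chow, and the sources used here do not give the strain or the deleted part of each gene. Messenger RNA came from a cut piece of each liver, so all liver cell types contributed, and fewer cells of a type and less RNA per cell cannot be told apart. The labels do not say whether mice shared a litter, and p-values measure the spread between these 16 livers.

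Ncoa5 encodes a coregulator that binds nuclear receptors such as the oestrogen receptors and can raise or lower transcription of their target genes. Tip30, whose gene symbol is Htatip2, is an oxidoreductase-like protein studied as a tumour suppressor, and mice with deletions of either gene have been used as models of liver cancer. Hcn3, named in the study's title, encodes a pacemaker-type cation channel. Several groups of genes below are targets of p53, a transcription factor that is held at low activity by the ubiquitin ligase Mdm2 and released by DNA damage and other stresses. Once active it switches on brakes of the cell cycle such as Cdkn1a, death receptors and Bax, and genes that dampen p53 itself.

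Whole reads assigned to genes ran from 24740706 to 37939978 per library, with 24740706 to 31987259 in the Ncoa5-heterozygous arm and 26058724 to 37939978 in the other. The heterozygous libraries were the shallower, by 0.19 on the log2 scale (2-sided exact permutation test within Tip30 backgrounds, n = 8 and 8, p = 0.0204); levels below are divided by a size factor per library. Between 21686 and 24142 genes had a read. The liver label held: Alb, the albumin gene, had a median of 1949990 normalized counts and Hnf4a one of 16993. Among the defining markers of other cells, every library had reads of the Kupffer cell gene Clec4f, the sinusoidal gene Stab2 and the T cell gene Cd3e, while Ly6g of neutrophils was at 0 in 1 library and Adipoq of fat cells at 0 in 4. Wild type 1 and 2 and Ncoa5+/- 1 and 4 stood apart in Zhx2, a repressor of fetal liver genes, with 8.8 to 26.3 normalized counts against 166.5 to 438.1 in the other 12 livers. Each arm held 2 of them, but all had both Tip30 alleles and none had the Tip30 deletion. Leaving them out gave 519 risers and 448 fallers, 699 of them among the 1209 calls from all 16 livers given below. With the log2 level of Zhx2 as a covariate there were 556 risers and 513 fallers, and 967 of the 1209 calls were kept.

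Ncoa5 RNA itself (ENSMUSG00000039804, GRCm38 chromosome 2, 165000357 to 165034867) did not pass the test between the arms. Wild-type mice had 409, 479, 434 and 380 normalized counts and Tip30+/- mice 392.3, 410, 382 and 450. Ncoa5+/- mice had 339, 411, 364 and 408, and Ncoa5+/-Tip30+/- mice 391, 369, 382 and 424, so the arms overlapped throughout. The log2 difference was -0.11 ± 0.07 (SE), with a 95% interval of -0.26 to 0.04 and an adjusted p of 0.350 (limma, n = 8 and 8). An exact permutation of Ncoa5 genotype within each Tip30 background gave a 2-sided p of 0.0804 for the mean log2 difference. The interval does not reach -1, the value if the deleted allele gave no reads and the other were unaltered. Since counts are summed over the whole gene and the deleted part is not known, this level checks nothing about the labels, and genotypes are used here as labelled. Htatip2, by contrast, stood at 685 to 1088 normalized counts in the 8 mice labelled with a Tip30 deletion and at 1835 to 2910 in the 8 others, or 38.8% of the latter. Within the Ncoa5 comparison Htatip2 was 1.23-fold higher in heterozygotes (log2 0.29 ± 0.09, adjusted p = 0.0516, limma, exact permutation p = 0.00980). It did not pass, but 12 of 31 alternatives called it, edgeR and DESeq2 among them (lowest adjusted p = 0.0228, DESeq2).

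Hcn3 rose with Ncoa5 heterozygosity. In mice with both Tip30 alleles wild type stood at 440, 262, 271 and 423 normalized counts and Ncoa5+/- at 674, 1117, 890 and 498. With a Tip30 deletion they were 1155, 1121, 1224 and 1047 in Tip30+/- and 1275, 1754, 2135 and 1990 in Ncoa5+/-Tip30+/-. Within each background the heterozygotes lay above every intact mouse, but across backgrounds the arms overlapped, with all 4 Tip30+/- mice above 3 of the 4 Ncoa5+/- mice. The additive fit gave a 1.86-fold rise (log2 0.90 ± 0.17, 95% interval 0.53 to 1.26, adjusted p = 0.00564, limma). The exact permutation p was 0.000408, the smallest that the 4900 arrangements can give. Without the Tip30 term the same difference lost its call (adjusted p = 0.199, limma). The log2 rise was 1.16 with both Tip30 alleles and 0.63 with the deletion, and the test of that difference gave an unadjusted p of 0.124. Hcn3 is on chromosome 3 at 89146074 to 89160196, and none of the other 5 tested genes of the list of HCN channels and Hcn3 neighbours passed, Hcn2 being closest in family (log2 0.45, adjusted p = 0.25).

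**Figure D1:**
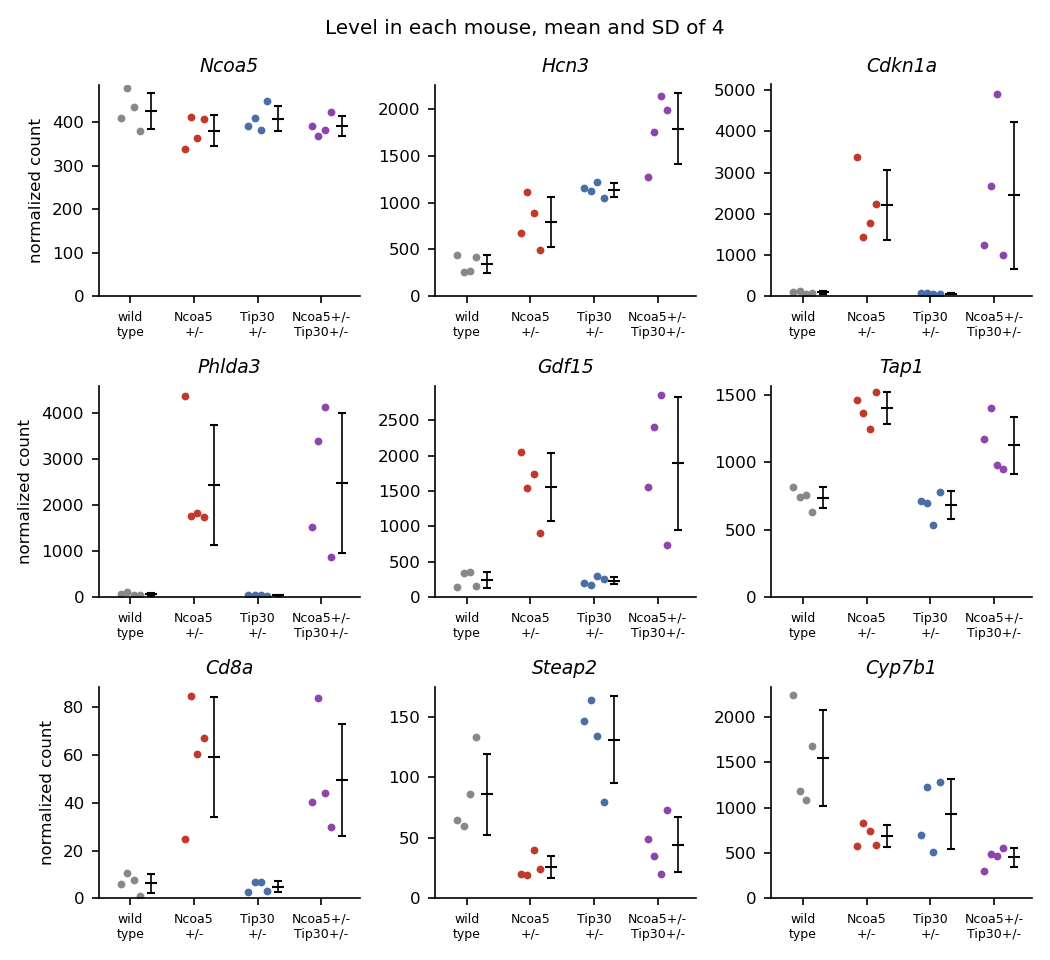
Normalized count of 9 genes in each of the 16 mice (points, 4 per genotype), with the mean and SD of 4 mice beside them; vertical axes are linear and start at 0. Ncoa5 was level across genotypes, Hcn3 was higher in Ncoa5 heterozygotes within each Tip30 background, and Cdkn1a, Phlda3, Gdf15, Tap1 and Cd8a separated the arms without overlap.

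Across the genome 612 genes rose (4.01% of those tested) and 597 fell (3.91%) in Ncoa5 heterozygotes at an adjusted p below 0.05. The rises were the larger changes. Of the risers 198 exceeded 2-fold and 50 exceeded 4-fold, against 22 and 1 of the fallers. The median riser stood at 1.71-fold and the median faller at 76.3% of the intact level, while the median log2 change of all genes was -0.01. Risers were genes of lower abundance, with a median level of 126 normalized counts against 322 for all genes and 1002 for fallers. Among the 6187 genes with a mean of 500 or more, 2.31% rose and 6.87% fell. Among the 3383 genes with a mean below 50, 4.91% rose and 0.680% fell. The levels of all 8 heterozygotes lay above those of all 8 intact mice for 120 genes (0.786%) and below for 41 genes (0.269%). Every one of the 120 was a called riser, and 39 of the 41 were called fallers. The split of calls moved both ways between alternatives. With upper-quartile scaling of the recovered reads 763 genes rose and 290 fell, with the median of all genes at 0.05. With a further term for the mouse tag number in the column names, below 4300 or not, 802 rose and 988 fell. Among genes averaging 50 or more, 457 rose and 624 fell, and without Ncoa5+/- 3 the split was 740 and 902. Leaving out a mouse moved the total of 1209 calls to between 649, without Ncoa5+/-Tip30+/- 2, and 1642, without Ncoa5+/- 3.

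Of 86 tested genes that start within 5 Mb of it, 4 rose and 4 fell, or 9.30% against 7.92% of all genes. They included Wfdc2 and the antisense transcript Hnf4aos, both described further on.

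Targets of p53 made up 7 of the 12 largest rises named by rule. Across 6 lists of p53 targets, written from general knowledge with results of these livers already known, 77 of 81 members passed the filter on low values, 33 rose and 3 fell. For all genes tested the shares were 4.01% and 3.91%, and here they were 42.9% and 3.90%. The median member changed by 0.35 on the log2 scale. Of the 33 risers 22 exceeded 2-fold and 12 exceeded 4-fold. The arms separated completely for 25 of the 77 members, all of them higher (32.5%, against 0.786% of all genes higher and 0.269% lower). Lif, Psrc1, Trp53cor1, Eda2r and Ckap2 averaged below 10 in intact mice and passed the filter through the heterozygotes. They could enter only as higher, so these counts are in part set by the filter. The mean over the 77 members, on the log2 scale and relative to the Ncoa5-intact mean, lay between 0.70 and 1.17 in the 8 heterozygotes and between -0.10 and 0.09 in the 8 others. Leaving out any 1 mouse left 29 to 36 members higher, and leaving out the 4 livers low in Zhx2 left 28.

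Of these risers 4 carry in their RefSeq promoter (250 bases before to 50 after a start site, GRCm38.p6) a match to the p53 response element, and these are shown because so many of the largest rises were of p53 targets. The element was searched as 2 copies of the 10-base p53 half-site, 0 to 13 bases apart, with the central bases of each half-site intact and at most 2 mismatches elsewhere. The site is its own reverse complement, so both strands were covered. The half-sites of the match with the fewest mismatches are in capitals, with flanking bases in lower case where they lie upstream of the start site. Other half-sites are not marked.
Cdkn1a: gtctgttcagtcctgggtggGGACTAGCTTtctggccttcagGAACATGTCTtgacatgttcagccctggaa
Bax: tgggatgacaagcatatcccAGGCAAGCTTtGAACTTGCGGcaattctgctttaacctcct
Ckap2: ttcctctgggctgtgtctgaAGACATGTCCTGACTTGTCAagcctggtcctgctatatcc
Gtse1: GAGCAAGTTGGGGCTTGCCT
The Cdkn1a stretch is chr17:29090886-29090957 on the plus strand, and its marked element has 0 mismatches and a spacer of 12 bases and begins 73 bases before an annotated alternative start site. The 10 lower-case bases right after it are also a half-site, with 1 mismatch. Together with the marked half-site before them they make another match, with no spacer. The Bax stretch is chr7:45467059-45467119 on the minus strand, and its element has 2 mismatches and 1 spacer base and begins 201 bases before the start site, inside the span annotated for the read-through gene Gm45808. The Ckap2 stretch is chr8:22185983-22186042 on the minus strand, and its element has 2 mismatches and no spacer and begins 203 bases before the start site. The Gtse1 element has 1 mismatch and no spacer, at chr15:85859945-85859964 on the plus strand, and begins 1 base before the start site. Promoters were found for 28 of the 33 risers and 4 held a match (14.3%), and for 36 of the 44 other tested members with 2 matches (5.56%). Of all 32851 promoter windows 697 held one (2.12%). The shares of members count genes with a match in any of their windows, while the share of all windows counts each window singly. A gene may have several windows, so the share of all windows is not on the same footing as those of members. A match describes the letters in these windows and not binding, and no match says only that the letters were not found there.

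Among p53 targets that arrest the cell cycle 7 of 13 tested members rose, none fell and the median log2 change was 0.92. Cdkn1a, the cyclin-dependent kinase inhibitor p21 whose element is the first printed above, stood in wild type at 117, 130, 62.7 and 73.1 normalized counts, and in Tip30+/- at 69.1, 70.3, 49.6 and 49.1. It reached 3382, 1434, 1785 and 2244 in Ncoa5+/- and 1233, 2666, 4893 and 1006 in Ncoa5+/-Tip30+/-. Every heterozygote was far above every intact mouse, and the heterozygotes spread over a wider range. The fitted rise was 27.6-fold (log2 4.79 ± 0.31, adjusted p = 2.6e-07, limma). Psrc1, a microtubule-binding protein, rose 15.8-fold from levels of 0 to 5.83 normalized counts to levels of 14.3 to 129.5. Gtse1, which acts on p53 and p21 in G2, rose 5.04-fold, and Plk2, a stress-induced kinase, 3.89-fold. Ccng1, cyclin G1, went from 609 to 861 normalized counts to 1668 to 3773. The Gadd45 genes did not pass, with log2 changes of 0.35 for Gadd45a and 0.61 for Gadd45b (adjusted p = 0.49 and 0.15, limma).

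Genes that feed back on p53 gave 4 risers and 1 faller among 8 tested members. Mdm2, the main ubiquitin ligase for p53, had 472 to 638 normalized counts in the 8 intact mice and 968 to 1822 in the 8 heterozygotes, a rise of 2.30-fold (log2 1.20 ± 0.13, adjusted p = 9.6e-06, limma). Trp53cor1, the long noncoding RNA next to Cdkn1a also known as lincRNA-p21, rose 10.6-fold from a median of 2.44 normalized counts. Trp53inp1, which stimulates autophagy and p53 activity, rose by 1.44 on the log2 scale. Rchy1, a further ubiquitin ligase for p53, passed narrowly at 0.24 ± 0.07 (adjusted p = 0.048, limma) and lost its call in 17 of 31 alternatives. Cop1, another such ligase, fell by 0.30 (adjusted p = 0.0497, limma), a call lost with edgeR and without any 1 of most mice. Trp53 RNA was flat, with a log2 change of 0.01 (adjusted p = 0.95, limma). Of the other 8 tested members of the list of p53 family and upstream kinases only Usp7, a deubiquitinase of Mdm2, passed, at -0.26 (adjusted p = 0.042, limma), and it lost its call in 17 of 31 alternatives. Atm, Atr and Chek2 did not pass.

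In the list of apoptosis and death receptors 9 of 17 members rose and 1 fell. Phlda3, a lipid-binding inhibitor of AKT (chromosome 1, 135766119 to 135769136), stood in wild type at 67.5, 115, 48.7 and 43.0 normalized counts, and in Tip30+/- at 48.6, 45.2, 54.5 and 33.8. It had 4371, 1756, 1820 and 1744 in Ncoa5+/- and 1533, 3390, 4114 and 880 in Ncoa5+/-Tip30+/-. No intact mouse came near any heterozygote, and the 39.6-fold rise (log2 5.31 ± 0.32, adjusted p = 1.9e-07, limma) was the largest among the genes named by rule. Eda2r, the receptor for ectodysplasin A2, rose 28.6-fold, and Tnfrsf10b, the TRAIL receptor, 14.3-fold. Bax, the pore-forming executioner of mitochondrial apoptosis, rose from 371 to 577 normalized counts to 856 to 1709 (2.39-fold), and Aen, an apoptosis-enhancing nuclease, rose 2.85-fold. Fas rose 1.37-fold and Apaf1 by 0.84 on the log2 scale. Bbc3 and Pmaip1, the BH3-only genes for PUMA and NOXA, gave -0.20 and 0.31 and did not pass (adjusted p = 0.83 and 0.56, limma). Perp, a desmosomal p53 target, fell by 0.40.

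Repair, metabolic and secreted targets were more mixed. Of 10 repair members 3 rose: Ddias, a DNA damage-induced apoptosis suppressor, by 3.12 on the log2 scale, Polk, a translesion polymerase, by 1.40, and Ercc5, a nuclease of nucleotide excision repair, by 0.59. Xpc, Ddb2 and Rrm2b did not pass (log2 -0.20, 0.17 and 0.10). Of 15 metabolic members 4 rose and 1 fell. Ddit4l, an inhibitor of mTORC1, had 7.03 to 14.6 normalized counts in the intact arm and 87.7 to 385 in the heterozygotes (16.5-fold, adjusted p = 1.9e-07, limma). Sesn2 rose 2.25-fold while its paralogue Sesn1 fell by 0.45 on the log2 scale. Among 14 secreted and membrane members 6 rose. Gdf15, a circulating stress hormone that acts on appetite, had 143 to 351 normalized counts in intact mice and 742 to 2852 in heterozygotes, a rise of 6.88-fold (log2 2.78 ± 0.29, adjusted p = 3.6e-05, limma). Lif, a cytokine of the IL-6 family (chromosome 11, 4257557 to 4272514), was at 0, 0, 0 and 1.02 normalized counts in Tip30+/- and at 1.02, 7.36, 0.936 and 0.860 in wild type. In Ncoa5+/- it was at 140, 46.8, 21.9 and 28.2, and in Ncoa5+/-Tip30+/- at 25.0, 112, 130 and 14.4. No values were shared between the arms, and the fitted 26.1-fold rise is on the log2(value + 1) scale, which understates changes of genes this low. Ephx1, microsomal epoxide hydrolase and an abundant liver enzyme, went from a median of 11589 normalized counts to one of 22902. Ckap2, a spindle protein, rose 6.08-fold.

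**Figure D2:**
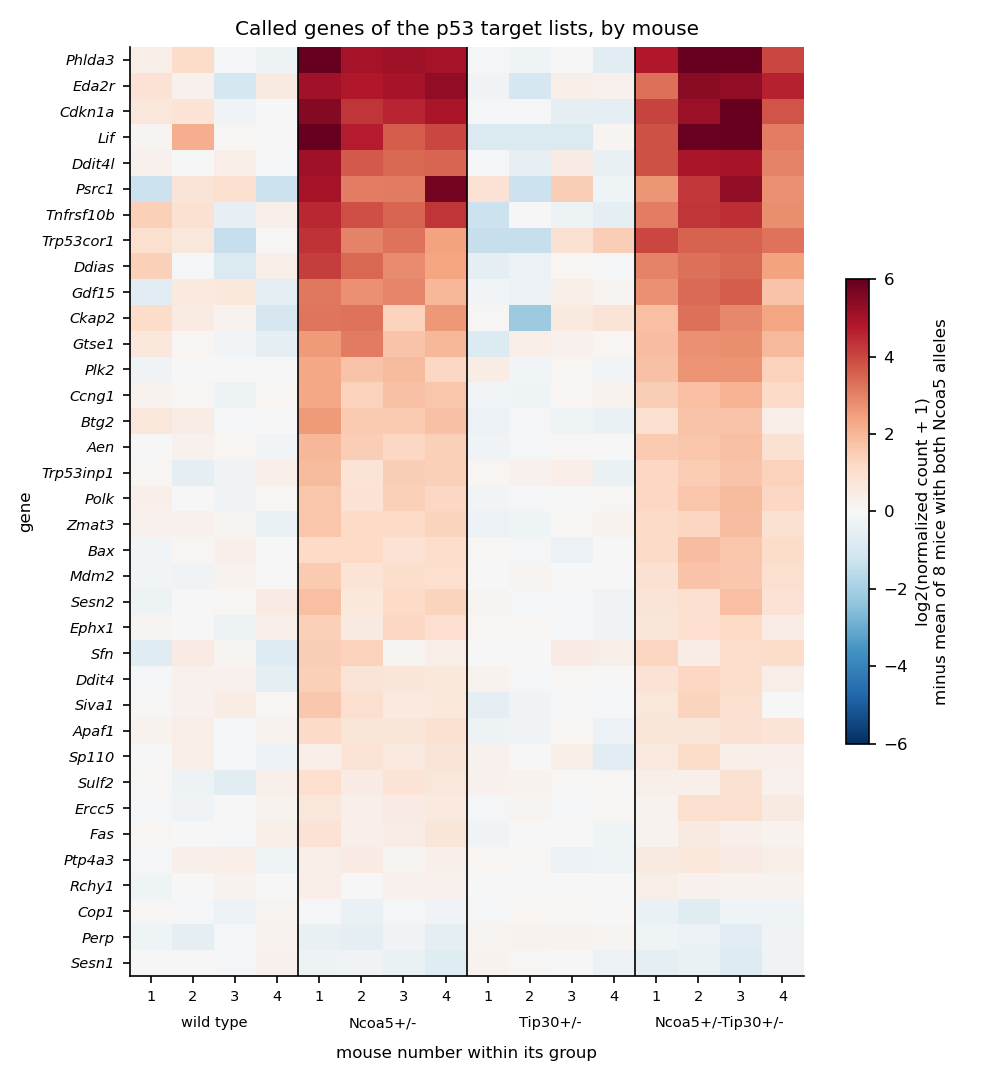
Each row is a member of the p53 target lists that was called, each column a mouse, in blocks of 4 per genotype; colour is log2(normalized count + 1) minus the mean of the 8 mice with both Ncoa5 alleles, with red for higher and blue for lower. Phlda3, Cdkn1a, Eda2r and Lif are deep red in both Ncoa5-heterozygous blocks and pale in both intact blocks, while risers of small size such as Rchy1 and the 3 fallers, Cop1, Perp and Sesn1, are pale throughout.

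Genes that sense or repair DNA damage, outside the p53 target lists, moved little: 1 of 19 rose and 1 fell. The riser was Mgmt, which removes alkyl groups from guanine, from 383 to 565 normalized counts to 831 to 1548 (log2 1.13 ± 0.12, adjusted p = 7.7e-06, limma), and Parp1 fell by 0.27. The list of cell cycle and proliferation genes had 4 risers among 27 members (14.8%, against 4.01% of all genes) and a median of 0.63. Ccnd1, cyclin D1, rose 2.94-fold from a median of 1577 normalized counts to one of 4888 without overlap, and Ccnb2, Plk1 and Top2a rose by 1.14, 1.43 and 1.07 on the log2 scale. Plk1 averaged below 10 in intact mice and passed the filter through the heterozygotes. It could enter only as higher, so the count of risers is in part set by the filter. Mki67, the usual proliferation marker, gave 1.06 and did not pass (adjusted p = 0.072, limma). The count was 2 without wild type 4, Tip30+/- 4 or Ncoa5+/-Tip30+/- 2, and 7 without wild type 1 or Ncoa5+/- 3. Among senescence genes 3 of 14 rose (21.4%), namely Cdkn1a, Gdf15 and, less firmly as given below, Ccl2.

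The 2 Tip30 backgrounds share no mice, so each can be set beside the other. The 4 livers low in Zhx2 are all among the mice with both Tip30 alleles. With both Tip30 alleles, Ncoa5+/- against wild type alone gave 55 risers (0.36%) and 1 faller (0.00655%). With a Tip30 deletion, Ncoa5+/-Tip30+/- against Tip30+/- alone gave 334 risers (2.19%) and 237 fallers (1.55%). All 55 risers of the former had the same sign in the latter and 43 of them were called there. They make up 76.8% of the 56 calls with both Tip30 alleles and 7.53% of the 571 calls with the deletion. The median over these 55 genes was 1.85 on the log2 scale in mice with both Tip30 alleles and 1.73 in the others. In the other direction, 281 of the 334 risers with the Tip30 deletion had the same sign in mice with both alleles, where their median fell to 0.57 from 1.15, and 231 of the 237 fallers had the same sign, at -0.24 against -0.58. These medians are over genes chosen in one set of mice and read in the other, so they do not rank the backgrounds. The only faller with both Tip30 alleles was Slc13a2. Across all 15263 genes the log2 changes in the 2 backgrounds had a Pearson r of 0.58 and a Spearman rho of 0.50. Genes are not independent replicates, so these values are a description with no test. Leaving out a mouse moved the 56 calls with both Tip30 alleles to between 35, without Ncoa5+/- 1, and 50. It moved the 571 calls with the deletion to between 105, without Tip30+/- 2 or Ncoa5+/-Tip30+/- 2, and 986, without Ncoa5+/-Tip30+/- 4.

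Of the 43 genes called upward in both sets of mice, 19 belong to the p53 target lists, among them Phlda3, Cdkn1a, Eda2r, Tnfrsf10b, Ddit4l, Gdf15, Mdm2, Bax and Ccng1. The other 24 include Gria3, Fam212b, Mgmt, Ly6e, Tap1, H2-Q7, Cd8b1, Ces2e, Map3k20, Atp8b5 and the noncoding Snhg15, of which those outside the rule for named genes were picked after their values were seen. Cdkn1a rose by 4.51 and 5.07 on the log2 scale in the 2 backgrounds and Phlda3 by 5.11 and 5.51. Mgmt rose by 1.12 and 1.14. Genes called upward only with both Tip30 alleles included Ccnd1, whose rises were nonetheless 1.59 and 1.53 (adjusted p = 0.00044 and 0.099, limma), Spp1 and Nupr1.

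The test of the difference between backgrounds called no gene (0 of 15263 with limma, smallest adjusted p = 0.950, 650 genes at an unadjusted p below 0.05). edgeR called 0 as well and DESeq2 called 1, Cryaa, whose limma p was 0.224. Among the genes called in the additive fit 4.88% had an unadjusted p below 0.05 for the difference, and among all genes 4.26%. The genes of smallest p were Gm44891, Cyp21a2-ps, Gm3235, Riox1, Gm6652 and 2310016G11Rik, and none of the 6 was called in the additive fit. Riox1, a ribosomal oxygenase, gave 0.44 on the log2 scale with both Tip30 alleles and -0.33 with the deletion (adjusted p = 0.950 for the difference, limma). Bax rose by 1.0 and 1.52 with an unadjusted p of 0.035.

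**Figure D3:**
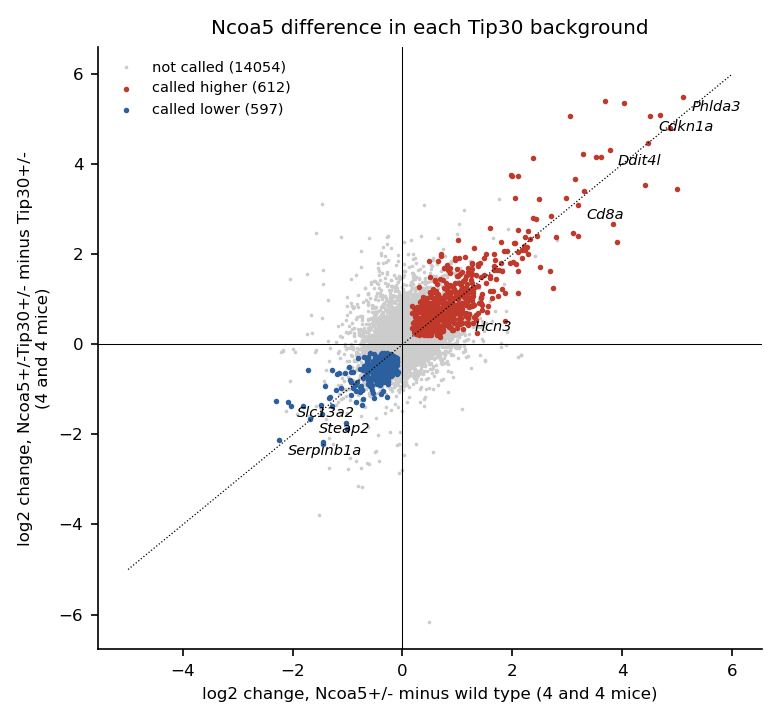
Each point is 1 of the 15263 genes, with its log2 change in Ncoa5+/- against wild type on the horizontal axis and in Ncoa5+/-Tip30+/- against Tip30+/- on the vertical axis (4 and 4 mice each); red and blue mark the 612 risers and 597 fallers of the additive fit and the dotted line marks equal changes. The largest risers, with Phlda3 and Cdkn1a at 4.5 to 5.5 on both axes, lie along the line.

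Many genes of the interferon system were higher in heterozygotes. Interferon-gamma drives GTPases that attack intracellular pathogens and the machinery that presents peptides on MHC molecules, while type I interferon induces antiviral genes. Of 33 tested genes of interferon-inducible GTPases and antigen presentation 25 rose (75.8%, against 4.01% of all genes) and none fell. The median log2 change was 0.61 (0.64 and 0.57 in the 2 backgrounds). Tap1, a subunit of the peptide pump into the endoplasmic reticulum, went from 532 to 818 normalized counts to 952 to 1517 without overlap (log2 0.82 ± 0.10, adjusted p = 4.2e-05, limma). H2-Q7, a nonclassical class I gene, rose 2.17-fold, Gbp8, a guanylate-binding protein, 2.23-fold, and Nlrc5, the transactivator of class I genes, 1.52-fold with overlap of the arms. Class II genes also rose: H2-Aa by 0.93, H2-Eb1 by 0.94 and their regulator Ciita by 0.80 on the log2 scale. Members of the H2 and Gbp families resemble each other closely, and reads may be split between them. Left-out mice moved the count of 25 to between 18, without Ncoa5+/- 4 or Ncoa5+/-Tip30+/- 2, and 26, without wild type 2, and 20 rose without the livers low in Zhx2.

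Of 35 type I interferon response genes 15 rose (42.9%, against 4.01% of all genes), 20 did not pass and none fell. The median was 0.63. With both Tip30 alleles alone 0 of the 35 were called, and with the deletion 5, where 0.36% and 2.19% of all genes were called higher. The list medians in these backgrounds were 0.63 with both Tip30 alleles and 0.64 with the deletion. Irf7, a master regulator of type I interferon genes, went from 514 to 1107 normalized counts to 874 to 1957 (log2 0.97 ± 0.17, adjusted p = 0.0027, limma). Bst2 (tetherin) rose 1.53-fold, Oas1g and Oas1a, RNA-sensing synthetases, rose 2.25-fold and by 1.13 on the log2 scale, and Isg15 rose 1.83-fold. All 5 of these overlapped between the arms. The mean over this list, relative to the intact mean, ran from 0.20 to 1.02 in heterozygotes and from -0.32 to 0.61 in intact mice, with wild type 1 and 2 the highest of these. The count was 9 without wild type 4, 10 without Tip30+/- 3 or Ncoa5+/-Tip30+/- 2, 20 without Ncoa5+/- 3, and 16 without the livers low in Zhx2.

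Markers of T and NK cells were higher beside these genes. Of 30 members 18 passed the filter on low values, and of these 9 rose and none fell, with a median of 0.93. Over all genes 4.01% rose. Several of these risers averaged below 10 in intact mice, among them Cd3e, Cd8a and Nkg7 (intact medians 6.79, 6.47 and 8.62). They passed the filter through the heterozygotes and could enter only as higher, so the count and median are in part set by the filter. Cd8a, part of the coreceptor of cytotoxic T cells (chromosome 6, 71373427 to 71379173), stood in wild type at 6.14, 10.5, 7.49 and 0.860 normalized counts, and in Tip30+/- at 2.56, 7.03, 6.81 and 3.07. It was at 24.8, 84.5, 60.4 and 67.2 in Ncoa5+/- and 40.5, 83.7, 44.2 and 29.9 in Ncoa5+/-Tip30+/-. All heterozygotes exceeded all intact mice, with a rise of 8.87-fold (log2 3.15 ± 0.36, adjusted p = 3.0e-05, limma). Cd8b1 rose 6.91-fold, Nkg7, a cytotoxic granule protein, 2.66-fold, and Lck, the T cell receptor kinase, 2.25-fold. Cd4 gave 0.56 and did not pass (adjusted p = 0.077, limma). The whole marker list of 30 genes summed to 812 to 1434 normalized counts in intact mice (median 1044) and 1114 to 1888 in heterozygotes (median 1405). Its part in the rise of interferon and chemokine genes was not tested. The count of 9 moved to 5 without Ncoa5+/-Tip30+/- 2 and to 7 without the livers low in Zhx2.

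Chemokines and NF-kB targets followed in part. Of 16 chemokine genes 4 rose (25%, against 4.01% of all genes). Cxcl9 and Cxcl10, which attract activated T cells, rose 2.31-fold and 2.22-fold, Ccl5 3.27-fold and Ccl2 by 0.98 on the log2 scale. Ccl2 averaged below 10 in intact mice and passed the filter through the heterozygotes. It could enter only as higher, so this count and that of the senescence genes are in part set by the filter. Ccl2 lost its call in 16 of 30 alternatives (adjusted p = 0.0903 without Ncoa5+/- 4, its highest mouse, limma). Only Cxcl9 of these separated the arms, from 129 to 281 normalized counts to 350 to 859. Of 20 NF-kB genes 4 rose (20%), namely Icam1 (1.52-fold), Relb (1.76-fold), Ltb and Traf1 (log2 1.20 and 1.41). Fewer markers of other cell types passed. None of 15 B cell and plasma cell markers, 5 neutrophil markers or 6 red blood cell genes did, with medians of 0.32, 0.66 and 0.59, and all 5 neutrophil and all 6 red cell estimates were positive. Among Kupffer cell and macrophage markers 2 of 25 rose, Aif1 and Spic, with a median of 0.43 and 22 positive estimates. That count was 1 to 5 on leaving out 1 mouse, with 5 without wild type 2 or Ncoa5+/-Tip30+/- 1. Rspo3 was the only riser of 20 sinusoidal endothelial markers, Spp1, osteopontin, the only riser of 15 cholangiocyte and progenitor markers, and Col1a1, Col3a1 and Col6a3 rose among 23 stellate and matrix genes (1 to 4 on leaving out 1 mouse). Spp1 went from a median of 593 normalized counts to 1204.

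**Figure D4:**
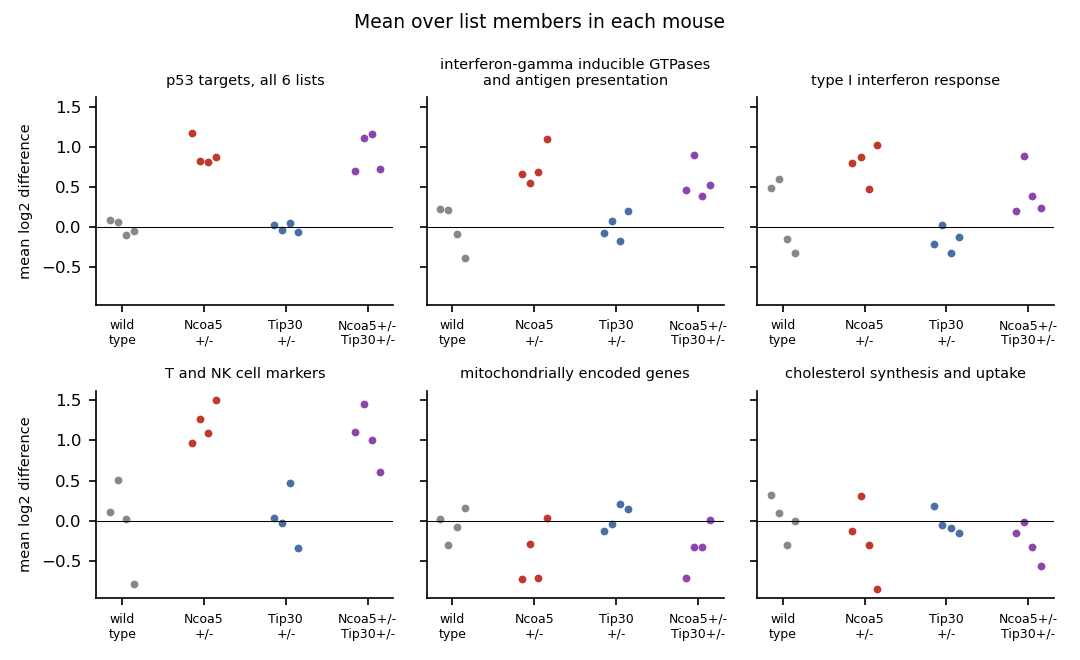
Mean over the tested members of 6 gene lists in each mouse (points, 4 per genotype), as log2(normalized count + 1) relative to the mean of the 8 mice with both Ncoa5 alleles. The p53 target mean is 0.70 to 1.17 in every Ncoa5 heterozygote and at most 0.09 in intact mice, while the mitochondrial and cholesterol lists overlap between genotypes.

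Nuclear receptors are ligand-controlled transcription factors that set bile acid, drug and lipid metabolism in hepatocytes, and coactivators such as Ncoa5 work through them. Of 31 nuclear receptors 4 fell (12.9%, against 3.91% of all genes) and none rose. Among genes averaging 500 or more, the level of most receptors and coregulators named here, 6.87% fell. Esrrg, an orphan oestrogen-related receptor, went from 90.4 to 213 normalized counts to 50.7 to 117 (log2 -1.12 ± 0.18, adjusted p = 0.0013, limma). Rxra, the shared partner of many receptors, went from a narrow 16224 to 17475 normalized counts to 9671 to 15549, with every heterozygote below every intact mouse. Nr3c1, the glucocorticoid receptor, and Thrb, a thyroid hormone receptor, fell by 0.28 and 0.32 on the log2 scale, and lost their calls in 12 and 15 of 31 alternatives. Of 20 coregulators 2 fell (10%), Med1 by 0.26 and Ncoa6 by 0.25. A negative estimate was found for 19 of the 20, while 7372 of all 15263 genes had a positive one. On leaving out 1 mouse the receptor count was 2 to 5, and the coregulator count 1, without wild type 1 or Tip30+/- 4, to 6, without Ncoa5+/-Tip30+/- 4. The coregulator count was 0 without the livers low in Zhx2. Hnf4a gave -0.36 and did not pass (adjusted p = 0.072, limma).

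Of 32 bile acid genes 4 fell (12.5%) and none rose. Over all genes 3.91% fell, and 6.87% of those averaging 500 or more. Slc10a1, which takes bile acids up from blood, went from 12365 to 18822 normalized counts to 9224 to 13567. Cyp7b1, the oxysterol hydroxylase of the alternative pathway of bile acid synthesis, stood in wild type at 2241, 1182, 1083 and 1684 normalized counts, and in Tip30+/- at 703, 1224, 508 and 1286. It was at 582, 826, 745 and 589 in Ncoa5+/- and 305, 485, 464 and 551 in Ncoa5+/-Tip30+/-, with 5 heterozygotes above the lowest Tip30+/- mouse. The level left was 48.3% (log2 -1.05 ± 0.20, adjusted p = 0.0065, limma). Akr1d1, a bile acid reductase, and Baat, which conjugates bile acids, fell by 0.50 and 0.37. The count of 4 was 7 without wild type 2 or Ncoa5+/-Tip30+/- 4 and 8 without Ncoa5+/- 3 or without the livers low in Zhx2. Of 27 cholesterol genes 7 fell (25.9%), including Msmo1, a sterol oxidase (log2 -0.55), and Srebf2, the master regulator of the pathway (-0.30). Another of the 7 was the sterol reductase gene Tm7sf2, whose identifier the table lists as Vps51. That count was 1 under upper-quartile scaling, without the livers low in Zhx2, and without wild type 1, Ncoa5+/- 4, Tip30+/- 1 or Tip30+/- 2. It was 2 to 4 without wild type 4, Tip30+/- 3, Tip30+/- 4 or any 1 of the Ncoa5+/-Tip30+/- mice, and 9 without Ncoa5+/- 2.

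Genes encoded by mitochondrial DNA fell: 7 of 15 members (46.7%, against 3.91% of all genes), none rose, and the median log2 change was -0.40. CYTB, a subunit of respiratory complex III, went from a median of 177303 normalized counts to 98902 (log2 -0.84 ± 0.17, adjusted p = 0.0071, limma) and COX1, a subunit of complex IV, from 525463 to 391599. The arms overlapped for both. The mitochondrial share of reads is made up of reads of these same genes and so restates their fall. It was 4.96% to 5.80% in intact mice and 3.42% to 5.59% in heterozygotes (2-sided exact permutation p = 0.0188 within Tip30 backgrounds). The depth given above was lower in heterozygotes too, and the part of depth or RNA quality in this fall was not tested. Of 37 nuclear genes of oxidative phosphorylation 3 fell (Ndufs1, Sdha and Atp5b, by 0.23 to 0.34), with a median of -0.03. This was 8.11%, against 6.87% of all genes averaging 500 or more. The mitochondrial count was 1 without wild type 4, without Tip30+/- 4 or under upper-quartile scaling, and 3 with edgeR. It was 2 to 4 without wild type 1, Ncoa5+/- 1, Tip30+/- 1, 2 or 3, or Ncoa5+/-Tip30+/- 1, 2 or 3.

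Zonation genes, which mark hepatocytes near the central or portal vein, fell in small numbers on both sides, 4 of 21 pericentral and 3 of 18 periportal. The pericentral fallers were Cyp2a5 (log2 -0.64), the glutamate transporter Slc1a2, glutamine synthetase Glul (-0.44) and Ahr, and the amino acid transporter Slc1a4 rose (0.84). The periportal fallers were Ctsc and the serine dehydratase Sds (-0.58 each) and Gldc. On leaving out 1 mouse the pericentral count was 1 to 5, with 1 without wild type 4, Tip30+/- 1, Tip30+/- 2 or Ncoa5+/-Tip30+/- 2, and the periportal count 2 to 4. Of 38 xenobiotic genes 3 fell (7.89%, near the share of genes averaging 500 or more) and Ephx1 rose. Among the fallers Cyp2c37 went from 11511 to 20095 normalized counts to 4668 to 12008. The count of 3 was 8 without wild type 2 or without the livers low in Zhx2, and 7 without Ncoa5+/- 3. Among 27 iron genes 4 fell (14.8%), namely Steap2, Aco1, Hamp2 and Slc11a2, and Id1, a BMP target, rose (2.35-fold). The number of fallers was 2 to 6 on leaving out 1 mouse. Steap2, a metalloreductase of endosomes (chromosome 5, 5664829 to 5694578), stood in wild type at 64.4, 59.9, 86.1 and 133 normalized counts, and in Tip30+/- at 147, 164, 134 and 79.9. It had 20.3, 19.4, 39.6 and 24.4 in Ncoa5+/- and 48.8, 34.8, 19.9 and 73.2 in Ncoa5+/-Tip30+/-, where 1 mouse overlapped wild type. The level left was 31.6% (log2 -1.66 ± 0.25, adjusted p = 0.00057, limma).

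**Figure D5:**
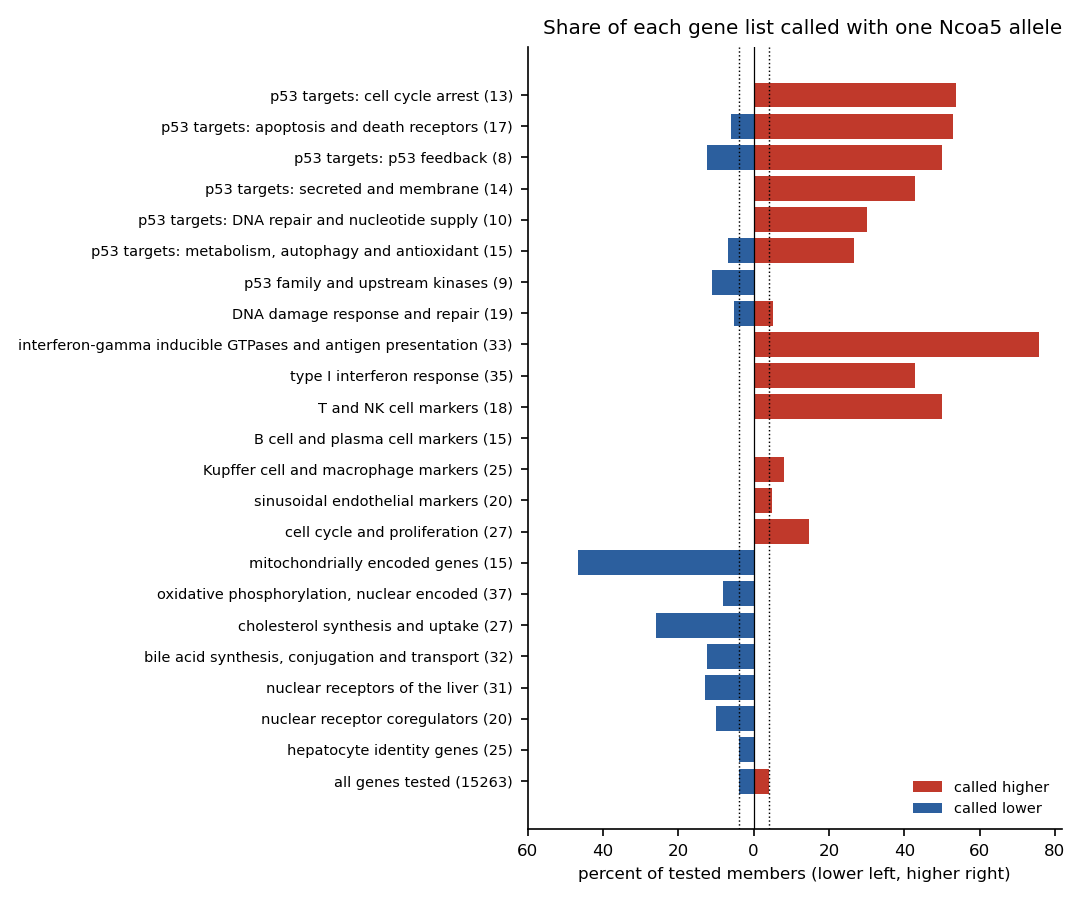
Percent of tested members of selected lists called higher (red, to the right) or lower (blue, to the left) with 1 Ncoa5 allele deleted, with the number tested in brackets and dotted lines at the shares over all 15263 genes, 4.01% and 3.91%. The p53, interferon and T cell lists extend far to the right, and the mitochondrial and cholesterol lists to the left.

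Antioxidant genes under the control of NRF2 gave 3 risers among 24 (12.5%, against 4.01% of all genes). Nfe2l2, the gene of NRF2 itself, led them and went from 1229 to 1462 normalized counts to 1614 to 2688. Its arms did not overlap (log2 0.66 ± 0.08, adjusted p = 3.7e-05, limma). Srxn1 and Gstm3 rose 1.40-fold and 2.19-fold. In the list of Wnt, Hippo and Notch targets 2 rose and 3 fell among 22: Notch1 rose 2.13-fold from 378 to 641 normalized counts to 763 to 1403, while Notch2 fell by 0.45 and Wnt5a by 0.56 on the log2 scale. Immediate early genes gave 4 risers of 22, Jund, Dusp5, Atf3 and Dusp6. Hepatocyte identity genes had 1 faller of 25, Tdo2. No member of the 18 tested major urinary proteins passed, although their median was -1.47, and in the 2 backgrounds it was -0.47 and -2.39. Fatty acid synthesis (1 lower of 35, Dgat2), fatty acid oxidation (2 lower of 31, Cyp4a14 and Etfdh), gluconeogenesis and insulin signalling (1 higher, Pck2, and 1 lower, Akt1, of 33), growth hormone signalling (1 lower of 17, Ghr), acute phase (1 higher, Apcs, and 1 lower, Hamp2, of 25), complement and coagulation (1 higher of 32, Mbl2), the heat shock and unfolded protein response (1 higher of 25, Atf3) and the circadian clock (1 lower of 18, Cry2) stayed near the share over all genes. Oestrogen-responsive liver genes gave 1 faller of 10, Cyp7b1, female-biased genes 2 fallers of 24, Sult2a2 and Cyp4a14, and male-biased genes 1 riser, Gstp1, and 1 faller, Cyp7b1, of 19. Fetal liver and tumour markers gave 2 risers of 16, Ly6d and Sox4. None of 2 exocrine pancreas genes and 3 adipocyte genes tested passed. Such small counts moved with single mice: on leaving out 1 mouse, risers among immediate early genes were 2 to 5 and fallers among fatty acid oxidation genes 0 to 4.

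Among the 12 largest rises named by rule, 4 were in none of the p53 or immune lists. Gria3, a subunit of AMPA glutamate receptors (chromosome X, 41400854 to 41678601), stood in wild type at 24.5, 24.2, 9.36 and 8.60 normalized counts, and in Tip30+/- at 22.2, 13.1, 7.78 and 10.2. It was at 524, 319, 390 and 424 in Ncoa5+/- and 345, 623, 836 and 246 in Ncoa5+/-Tip30+/-, again without overlap (29.7-fold, adjusted p = 4.2e-08, limma). Fam212b, an inhibitor of the kinase PAK4, rose 14.9-fold and separated the arms. Sult2a7, a sulfotransferase, rose 16.7-fold in the fit (adjusted p = 0.0171, limma), but Ncoa5+/- 1 and 4 had 46.2 and 12.7 normalized counts, within the intact range of 4.21 to 58.5, while the other 6 heterozygotes had 554 to 2597. These 2 mice are the heterozygotes low in Zhx2, and the wild-type livers low in Zhx2 had the lowest levels of all, 10.2 and 4.21. Ly6d, a small membrane protein, rose 9.52-fold with Ncoa5+/-Tip30+/- 1, at 21.4, inside the intact range, and lost its call without the livers low in Zhx2 (adjusted p = 0.0516, limma).

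The 12 largest falls were smaller and less clean, and 11 of the 12 overlapped between the arms. Serpinb1a, an inhibitor of neutrophil proteases, stood in wild type at 53.2, 75.7, 656 and 242 normalized counts, 229, 235, 252 and 269 in Tip30+/-, 15.8, 55.0, 48.9 and 27.3 in Ncoa5+/- and 124, 48.0, 21.7 and 71.2 in Ncoa5+/-Tip30+/- (log2 -2.19 ± 0.48, adjusted p = 0.0138, limma). Slc13a2, a citrate transporter, and Dct, an enzyme of melanin synthesis, fell by 1.68 and 1.45 on the log2 scale, and Dct lost its call in 13 of 31 alternatives, 12 of them single mice left out (highest adjusted p = 0.0819 with no filter, limma). Hamp2, a hepcidin, and Wfdc2, a protease inhibitor, fell by 1.25 and 1.41. Hamp2 was not called without the livers low in Zhx2 (adjusted p = 0.0733, limma), and Hamp2, Wfdc2 and Cyp4a14 were not called when the Tip30 term was left out (adjusted p = 0.113, 0.0752 and 0.153, limma). Dsg1c, a desmosomal cadherin, Cyp4a14, a fatty acid hydroxylase, and Gpt2, mitochondrial alanine transaminase, fell by 1.06, 0.96 and 0.95. Hnf4aos, transcribed antisense to Hnf4a, was the exception without overlap, at 101 to 158 normalized counts in intact mice and 33.6 to 83.5 in heterozygotes (log2 -1.16 ± 0.17, adjusted p = 0.00037, limma). The libraries are not stated to mark strand, so its reads and those of Hnf4a cannot be fully told apart.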

How the data were processed

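RNA of 16 livers was read by sequencing of poly(A)-selected messenger RNA. Per the submitters' processing notes, reads were trimmed with Trimmomatic 0.36, aligned with STAR 2.6.0c to GRCm38 and normalized with DESeq2 1.28.1; the sources used here do not give the gene counter, annotation or strandedness. The deposited values are a signal, counts that the authors divided by a size factor per library, and whole reads were recovered from them. The recovered reads gave the depth and entered the edgeR 4.0.16 and DESeq2 1.42.0 alternatives. The main test was limma 3.58.1 in R 4.3.3 with a mean-variance trend and robust variances on log2(value + 1), with Ncoa5 and Tip30 genotype as terms, on genes with a mean of at least 10, and Benjamini-Hochberg adjustment over all 15263 genes (threshold 0.05). Each background was also fitted on its own 8 mice. Fold changes are on the log2(value + 1) scale. Errors are SE of the fit. The table gave symbols for 18821 genes, a gene table for 11328 more, and 50 had an identifier only. Genes named are the 12 largest rises and 12 largest falls averaging 50 or more in the higher arm and the same sign in both backgrounds, up to 4 called members per list (otherwise up to 2 of smallest p), Ncoa5, Htatip2 and Hcn3; further list members are named as examples chosen after their values were seen. The comparison and the gene lists were chosen with earlier results of these data known. No 2 libraries of a group were alike within counting noise (lowest chi-square per gene 20.7 over 24 pairs). The fits were tested on simulated data. Alternatives were other tools, scalings, pseudocounts and filters, other model terms, and leaving out each mouse or, chosen after seeing the data, the 4 livers low in Zhx2. Y-linked genes and several pancreas genes were not analysed here.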

Additional observations from a re-analysis of the deposited data

Results flagged for a closer look

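In 6 of 108 groups of 4 mice, over the largest rises and falls and Ncoa5, Htatip2 and Hcn3, the highest or lowest mouse lay so far from the others that its gap, as a share of the group's range, exceeded Dixon's 95% critical value, where chance gives about 1 group in 20. Ncoa5+/- 1 was highest for Phlda3, at 4371 normalized counts against a next highest of 1820, and for Ddit4l, at 385.2 against 142.6. For Lif, wild type 2 had 7.361 normalized counts against a next highest of 1.023, and Tip30+/- 4 had 1.024 against 0 in the other 3 mice of its group. With 3 mice tied at 0, any read in the remaining mouse makes the gap equal the range, so that flag was set by the ties. Wfdc2 was lowest in Ncoa5+/-Tip30+/- 3, at 36.4 against a next lowest of 95.91. Hamp2 was lowest in Tip30+/- 2, at 303.3 against 673.8. Phlda3, Lif and Ddit4l separated the arms in all 16 mice all the same.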

How the results depend on the processing

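The 1209 calls over both backgrounds became 1839 with DESeq2 and 649 to 1642 on leaving out 1 mouse, with 725 without wild type 4, 795 without Ncoa5+/- 4, 736, 758 and 686 without Tip30+/- 2, 3 and 4, and 695 without Ncoa5+/-Tip30+/- 3. They became 1053 with upper-quartile scaling (763 higher, 290 lower), 915 with no filter and 1148 with edgeR. For the Ncoa5 effect with both Tip30 alleles the 56 calls became 254 with DESeq2, 85 in a fit of all 4 group means, 33 without the livers low in Zhx2, and 35 to 50 on leaving out 1 mouse (36 without wild type 1). For the Ncoa5 effect with one Tip30 allele the 571 calls became 1535 with DESeq2 and 105 to 986 on leaving out 1 mouse, with 204, 250 and 166 without Tip30+/- 1, 3 and 4 and 197 without Ncoa5+/-Tip30+/- 3. The difference between backgrounds gave 0 calls on leaving out any mouse and 1 with DESeq2. The Hcn3 change was 0.79 to 0.99 on the log2 scale and was called in 30 of 31 alternatives, all but the fit without the Tip30 term (0.90, adjusted p = 0.199, limma). Ncoa5 was called in 0 of 31. Over 128 named genes, 3518 of 3952 values kept call and direction, 422 were not called, 12, all of Htatip2, were newly called and 0 reversed, and 79 genes kept their call in every alternative that gave a value. The cause of these shifts was not tested. No paired analysis was possible because the replicate numbers follow the order of the samples and pair no mice; a term for mouse tag number, which is no pairing, gave 1790 calls (802 higher, 988 lower), with all 1209 among them. Genes with a few reads per library, such as Lif and Cd8b1 in intact mice, carry counting error that limits their fold changes.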

Other observations

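The 3 gene families below were looked at after their values were seen, so their counts are a description. Over all genes 4.01% rose and 3.91% fell. Of 38 tested histone genes 14 rose and none fell, with a median log2 change of 0.56. That count was 6, without Ncoa5+/- 4 or Ncoa5+/-Tip30+/- 2, to 23, without Ncoa5+/- 3, on leaving out 1 mouse, and 5 without the livers low in Zhx2. It was 7 to 9 without wild type 4, Ncoa5+/- 2, Tip30+/- 2 or Tip30+/- 3. Hist1h1e and Hist1h1d, linker histones, rose by 1.51 and 1.78 on the log2 scale, and Hist1h4m and Hist1h4n, copies of histone H4 whose reads may be split between them, by 2.30 and 2.21. Several histone genes, Hist1h4m and Hist1h4n among them, averaged below 10 in intact mice and passed the filter through the heterozygotes. They could enter only as higher, so the histone count and median are in part set by the filter. All 4 tested Gstp genes, which encode pi-class glutathione transferases and lie side by side on chromosome 19, rose: Gstp1 by 0.99, Gstp2 by 1.01, Gstp3 by 0.65 and the pseudogene Gstp-ps by 1.01, again with reads that may be shared. Of 5 Ly6 genes, small membrane proteins, 3 rose. Ly6e had 4683 to 11189 normalized counts in intact mice and 20757 to 33908 in heterozygotes, a rise of 3.95-fold with no overlap (adjusted p = 2.2e-07, limma), and Ly6a rose by 1.92 on the log2 scale.

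Within 5 Mb of Ncoa5 the 4 risers were Ube2c, Sulf2, Tomm34 and Ocstamp and the 4 fallers Wfdc2, B4galt5, Stk4 and Hnf4aos.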
